A study of Mus musculus with 8 samples.

Results

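Integrins and cadherins are the cell surface receptors through which 3T3-L1 cells, a clonal mouse embryo fibroblast line that can be turned into fat cells in culture, hold on to matrix and to each other. The genes described here are those whose mouse symbol is an integrin alpha subunit (Itga), an integrin beta subunit (Itgb) or a numbered cadherin (Cdh): 49 of the 49585 genes counted, of which 18 are alpha subunits, 8 are beta subunits and 23 are cadherins. The cadherin symbols include genes outside the classical cadherins, such as Cdh13, Cdh16, Cdh17, Cdh23 and Cdh26. RNA was sequenced from 4 groups of 2 libraries, all taken on day 7. Cells were grown flat in dishes (2D) or as spheroids in hanging drops (3D), and in each format were left uninduced or were induced to fat cell development. Spheroids were started from 20000 cells in 28 µL drops. Induced cultures received troglitazone (10 µM) and insulin (1 µg/ml) throughout, with dexamethasone (250 nM) and triiodothyronine (10 nM) in the first 2 days, and uninduced cultures received none of these. All groups shared a high-glucose medium with calf serum, biotin, pantothenate, antibiotics and methylcellulose. How many dishes or drops went into a library is not given in the sources used here.

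An integrin is a pair of 1 alpha and 1 beta subunit. The pair decides the ligand: collagens, laminins, or proteins with the RGD motif such as fibronectin and vitronectin. Inside the cell the beta subunit is tied to actin by talin, kindlin and other adaptors. Classical cadherins bind like molecules on the neighbouring cell and are tied to actin by catenins. During fat cell development, fibroblast-like precursors round up, and their matrix changes from one rich in fibronectin to one rich in laminin and basement membrane collagen.

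The libraries held 11839374 to 21169390 counts, and 15255 genes had enough counts to be tested. Levels are given as CPM (counts scaled to library size with TMM) for 1 gene across samples and as FPKM (the same divided by exon length) between genes. Differences are log2 fold changes ± standard error from edgeR's quasi-likelihood test on all 8 libraries, with 2 libraries per group. A gene was called at a Benjamini-Hochberg adjusted p under 0.05 over all tested genes and a change of at least 2-fold. The samples are described as independently prepared, without saying that they were separate cultures, so p-values reflect only the variation among these samples. The pair of 3D induced libraries was less alike than the other pairs, with 2159 genes at least 2-fold apart, where the other groups had 380 to 561. The summed CPM of 7 fat cell markers was 85.4 to 85.8 in 2D uninduced, 5385 to 5864 in 2D induced, 117 to 121 in 3D uninduced and 1108 to 2118 in 3D induced libraries. That of 7 fibroblast and preadipocyte markers was 34668 to 35376, 21773 to 22290, 11135 to 12883 and 4436 to 14596 in the same order. Col1a2 and Col1a1 were the largest of the 7 in every library. Between uninduced cultures Col1a2 had 20167 and 20731 CPM in 2D and 6015 and 6957 in 3D. Pdgfrb alone of the 7 went the other way (360 and 372 against 412 and 465), and Pdgfra overlapped (814 and 861 against 833 and 703). The part of these shifts in the results below was not tested, and in bulk RNA fewer cells of a type and less RNA per cell cannot be told apart.

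Of the 49 genes, 30 had at least 10 counts over the 8 libraries, and 27 of these were tested: 12 alpha subunits, 7 beta subunits and 8 cadherins. Of the 27, 20 passed the filter on low counts (0.707 CPM in 2 libraries) whichever group is set aside, and 7 would have failed it without 1 group: Itga2, Itgad, Itgb7, Itgb8, Cdh17, Cdh18 and Cdh23. A test in which that group is the high one is given for those 7 only as a description. Itga9, a receptor for tenascin C, had 28 counts, and the leukocyte subunits Itgal and Itgae had 33 and 63, too few to be tested. The other 19 were silent, with 9 counts or fewer. They were Itga4, which pairs with Itgb1 on leukocytes and migrating cells, the leukocyte subunits Itgam and Itgax, the epithelial subunit Itgb6, and 15 cadherins. Silent cadherins included the epithelial Cdh1 and Cdh3 (5 counts each), the endothelial Cdh5 (9 counts), the muscle Cdh15 (3 counts) and the retinal Cdh4 (0 counts). Beside Cdh4, the genes Cdh8, Cdh9, Cdh12 and Cdh20 had no count in any library, and a count of 0 allows up to 3 counts by counting error. The gap at the limit of 10 counts lay between Cdh5 with 9 and Itga9 with 28. Of 9 leukocyte markers, Ptprc, Adgre1, Laptm5 and Tyrobp had 0 counts in all libraries, while Csf1r (1323 counts in all), Cd68 (370), Lyz2 (259) and Fcer1g (24) were counted, and the 9 summed to 11.9 to 25.2 CPM. Of 7 endothelial markers, Tie1 and Cldn5 had 0 counts. The summed CPM of the endothelial markers was 0.0893 to 1.99 over the libraries, and that of 8 epithelial markers was 0.350 to 4.07.

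A few transcripts made up most of each family. Itgb1, the beta subunit shared by most matrix receptors (chromosome 8, 128685654 to 128733200 on GRCm38), was the most abundant of the 49 in every library. Its FPKM was 241 and 239 in uninduced and 181 and 187 in induced flat cultures, and 191 and 197 in uninduced and 159 and 158 in induced spheroids. It held 69.1 to 79.3% of the summed FPKM of the beta subunits. Itga5, the alpha subunit of the fibronectin receptor, held 53.9 to 56.4% of the alpha sum in flat cultures and 65.0 to 77.6% in spheroids. Cdh11, a mesenchymal cadherin, held 72.1 to 76.1% of the cadherin sum in flat cultures, 71.9 and 73.7% in 3D uninduced and 67.9 and 59.9% in 3D induced libraries. Such shares describe RNA and not the receptor pairs formed.

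**Figure D1:**
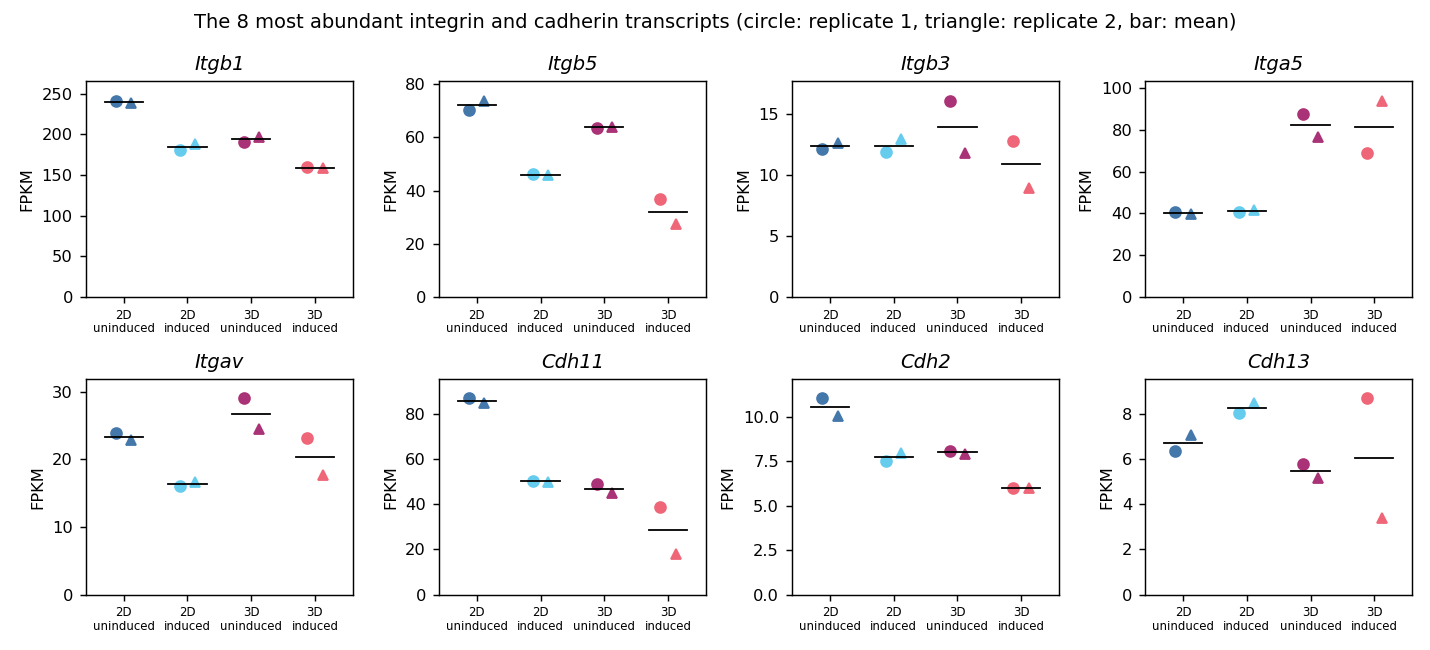
FPKM (y axis, from 0) of the 8 integrins and cadherins with the highest mean FPKM over the 8 libraries, by group (x axis), with a circle for replicate 1, a triangle for replicate 2 and a bar for the mean. Itga5 lay at 39.8 to 41.5 FPKM in the 4 flat libraries and at 69.1 to 94.0 in the 4 spheroid libraries, while Cdh11, Itgb1 and Cdh2 had their highest values in 2D uninduced libraries.

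The order of the leading transcripts differed between the formats. In 2D uninduced cultures Itgb1 was followed by Cdh11 (86.8 and 84.6 FPKM), Itgb5 (70.4 and 73.8), Itga5 (40.4 and 39.8) and Itgav (23.9 and 22.8), with no overlap between neighbours. In 3D uninduced cultures Itga5 was the second (87.7 and 76.6 FPKM), ahead of Itgb5 (63.6 and 64.0) and Cdh11 (48.8 and 44.8). Itga5 was again the second in 3D induced spheroids (69.1 and 94.0 FPKM), but the values below it overlapped: 38.7 and 18.0 for Cdh11, 36.6 and 27.3 for Itgb5 and 23.1 and 17.7 for Itgav. The summed FPKM of the alpha subunits was 72.5 to 75.1 in flat cultures and 106 to 132 in spheroids. That of the beta subunits was 329 and 331 in 2D uninduced and 276 and 278 in 3D uninduced cultures. After induction the beta sums were 242 and 249 in 2D and 213 and 199 in 3D. The cadherin sum was 114 and 112 in 2D uninduced cultures, 62.2 to 69.4 in 2D induced and 3D uninduced cultures, and 57.0 and 30.03 in the 3D induced libraries.

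**Figure D2:**
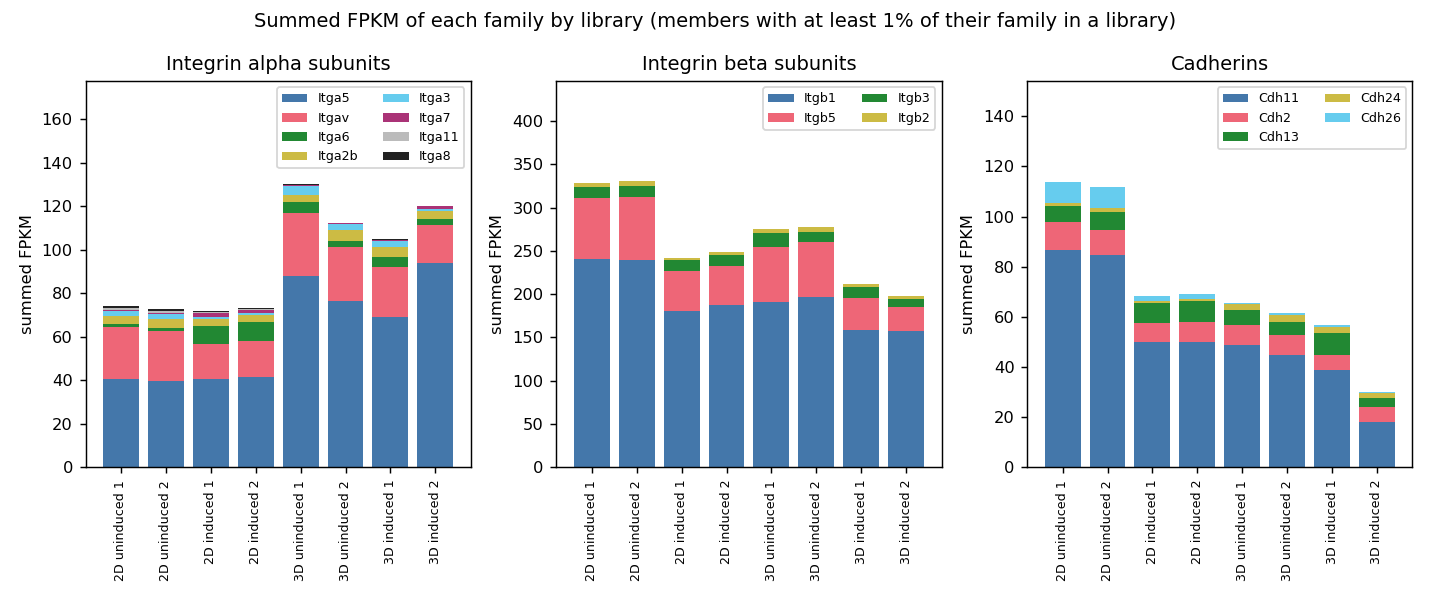
Summed FPKM (y axis) of integrin alpha subunits, integrin beta subunits and cadherins in each of the 8 libraries (x axis), stacked by gene for genes that hold at least 1% of their family in a library. Itga5, Itgb1 and Cdh11 form the largest blocks, and the alpha stack is higher in the 4 spheroid libraries (106 to 132) than in the 4 flat ones (72.5 to 75.1).

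Between spheroids and flat cultures without induction, alpha subunits were called in both directions, and the cadherin Cdh26 was called lower. Of the 27 tested genes 6 were called between 3D and 2D uninduced cultures (22.2%), where 9.44% of all tested genes were called. Without the 7 genes that needed 1 group to be tested, it was 5 of 20. Itga5, Itga6, Itga10 and Cdh23 were higher in spheroids (5.42% of all genes were called higher), and Itga11 and Cdh26 were lower (4.02%). At an adjusted p under 0.05 with no limit on fold 8 passed, where 21.1% of all genes did: Cdh24 also rose and Cdh2 also fell. The median log2 difference was 0.17 for the 27 genes and 0.03 for all tested genes. The count fell without either 2D uninduced library or 3D uninduced replicate 1, and rose without either 3D induced library (edgeR). The share of all genes called fell and rose in the same fits. Cdh18 and Itgb7 were among the calls without a 3D induced library. Like Cdh23, they needed the 3D uninduced group, here the high one, to be tested, so these calls are only a description.

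In induced cultures 6 of the 27 were again called between the formats (22.2%), against 12.4% of all tested genes, and 5 of the 20 that did not need 1 group. Itga10, Itgad and Cdh24 were higher in spheroids, where 6.94% of all genes were called higher, and Itga6, Itga11 and Cdh26 were lower, where 5.46% were. Each group enters 2 of the 4 comparisons, so comparisons that share libraries are not independent of each other. With no limit on fold 9 passed, where 28.7% of all genes did: Itga5 also rose and Cdh2 and Itgb5 also fell. With only the libraries compared in the fit, 2 were called (Cdh24 and Itga5), where 5.67% of all genes were called. The median log2 difference was -0.12 for the 27 genes and 0.03 for all tested genes. The count moved with single libraries: it fell without either 2D induced library and rose without either 3D induced one. The share of all genes called fell and rose in the same fits.

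**Figure D3:**
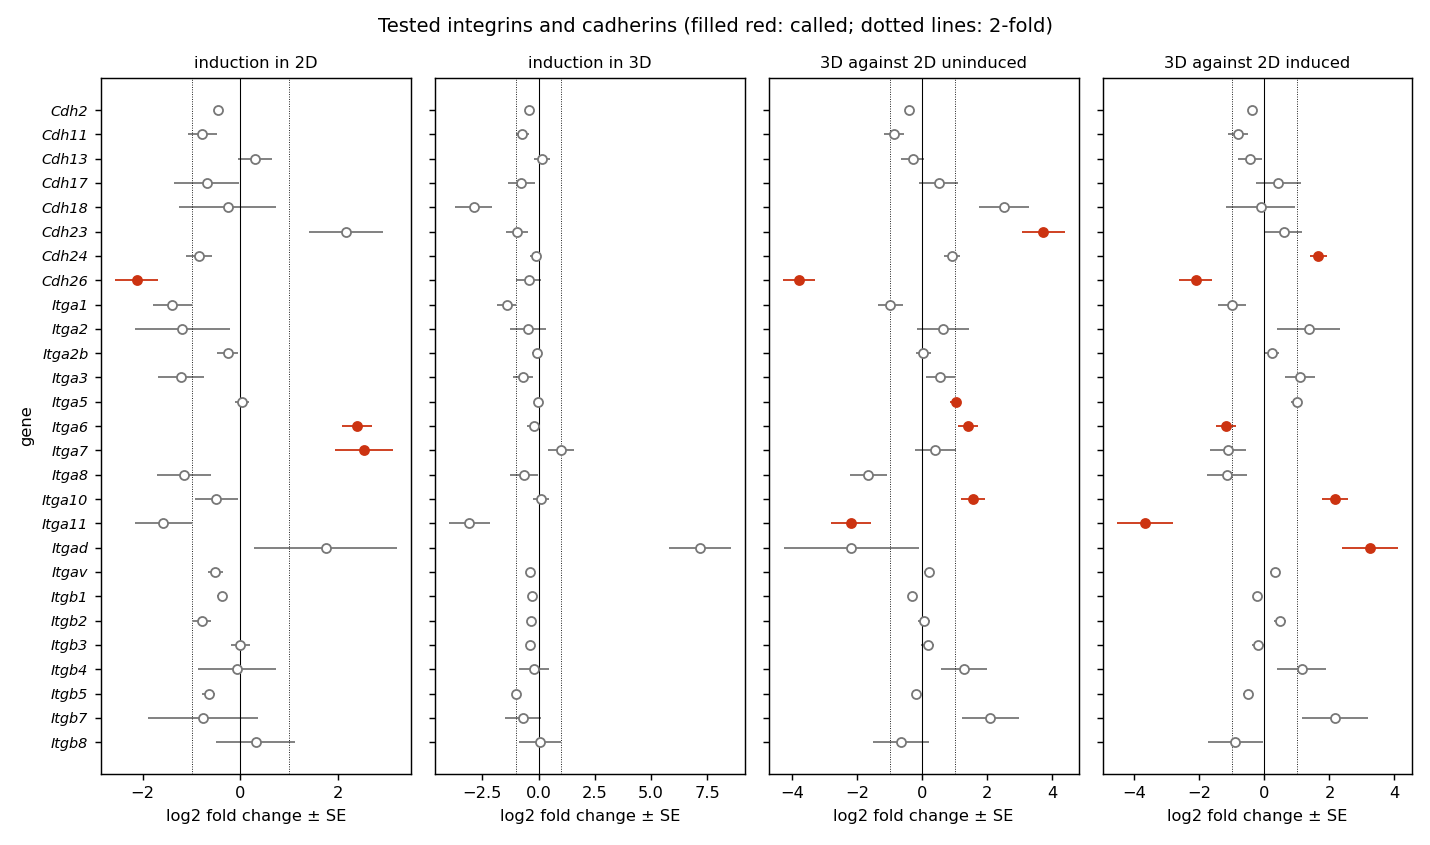
Log2 fold change (x axis) with its standard error for the 27 tested integrins and cadherins (y axis) in 4 comparisons, filled red where called, with dotted lines at 2-fold. The 2 inductions hold 3 and 0 calls and the 2 format comparisons 6 each, and most points of the induction panels lie below 0 (19 of 27 in 2D and 22 of 27 in 3D).

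Itga5 was the abundant integrin that moved with culture format. The gene lies on chromosome 15 (103344286 to 103366763, minus strand, GRCm38), and its product pairs only with Itgb1 to bind fibronectin. Its CPM was 199.5 and 196 in uninduced and 200.3 and 205 in induced flat cultures, against 433 and 378 in uninduced and 341 and 464 in induced spheroids. All 4 spheroid libraries lay above all 4 flat ones. The difference was 1.03 ± 0.16 without induction (edgeR adjusted p = 0.00435) and 0.99 ± 0.16 with it (adjusted p = 0.00405), and only the first passed the limit of 2-fold. The uninduced call was lost without either 2D uninduced library (adjusted p = 0.0585 and 0.0600), and without 3D uninduced replicate 1 the difference was 0.93, under 2-fold.

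Its partner Itgb1 did not pass the edgeR test on all 8 libraries in any comparison. The CPM of Itgb1 was 985 and 976 in uninduced and 738 and 765 in induced flat cultures, and 779 and 802 in uninduced and 649 and 645 in induced spheroids. The groups did not overlap within either format, nor between formats at the same induction state. The differences were small: -0.31 for 3D against 2D uninduced (edgeR adjusted p = 0.0722), -0.22 for 3D against 2D induced (adjusted p = 0.156), -0.38 for induction in 2D (adjusted p = 0.0646) and -0.29 for induction in 3D (adjusted p = 0.296). DESeq2 (adjusted p = 0.0260 and 0.00666) and limma voom (0.00197 and 3.53e-05) passed Itgb1 for 3D against 2D uninduced and for induction in 2D, under 2-fold, and edgeR passed all 4 without either 3D induced library.

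Receptors for collagen split into genes that were higher and genes that were lower in spheroids. Itga1, Itga2, Itga10 and Itga11 each pair with Itgb1 to bind collagens. Itga10, best known from cartilage (chromosome 3, 96645584 to 96664519), had a CPM of 0.996 and 0.905 in uninduced and 0.893 and 0.490 in induced flat cultures, and 3.32 and 2.40 in uninduced and 3.25 and 2.93 in induced spheroids. Every spheroid library was above every flat one. It was 1.57 ± 0.38 higher in 3D uninduced (edgeR adjusted p = 0.0243) and 2.17 ± 0.40 higher in 3D induced cultures (adjusted p = 0.00729). The first call was lost without any 1 of the 4 uninduced libraries (adjusted p = 0.0636 to 0.153) and the second without 2D induced replicate 2 (adjusted p = 0.0708) or with only the libraries compared (0.0540). Itga10 shares 1739 exon bases with Gm42957 on the same strand, which had 4 counts.

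Itga11, a receptor for fibrillar collagen on fibroblasts (chromosome 9, 62677826 to 62783982), went the other way. Its CPM was 4.68 and 5.73 in uninduced and 2.32 and 1.19 in induced flat cultures, and 1.47 and 0.800 in uninduced and 0.271 and 0 in induced spheroids. The 2D uninduced libraries were the highest and the 3D induced libraries, with 4 counts in all, the lowest. Without induction Itga11 was -2.18 ± 0.61 in spheroids (edgeR adjusted p = 0.0400), a call lost without any 1 of the 6 libraries other than the 3D induced ones (adjusted p = 0.0658 to 0.211). With induction it was -3.68 ± 0.87 (adjusted p = 0.0180), lost without 2D induced replicate 1 (0.103) or 2 (0.0506), with limma voom (0.252) and with only the libraries compared (0.0901). From the counts of 43 in 2D induced and 4 in 3D induced libraries, the level was 13.5 times higher in 2D (95% interval 4.89 to 51.6, counting error only).

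Itga1 and Itga2 were not called by edgeR on all 8 libraries. The CPM of Itga1, a receptor for basement membrane collagen, was 10.3 and 11.2 in uninduced and 3.66 and 4.48 in induced flat cultures, and 5.53 and 5.31 in uninduced and 3.05 and 1.05 in induced spheroids. The 2D uninduced libraries again stood highest. Its log2 differences lay between -0.98 and -1.42 over the 4 comparisons, with edgeR adjusted p of 0.0714 for induction in 2D, 0.179 for induction in 3D, 0.106 for 3D against 2D uninduced and 0.111 for 3D against 2D induced. Without 3D induced replicate 1, Itga1 was called in 3 of these comparisons: induction in 2D (adjusted p = 7.64e-05), induction in 3D (7.68e-05) and 3D against 2D induced (2.41e-04). Without 3D induced replicate 2 it was called for induction in 2D (7.14e-05), while the difference shrank to -0.83 for induction in 3D (0.0609) and to -0.43 for 3D against 2D induced (0.231). Induction in 2D was also called for Itga1 by DESeq2 (-1.42, adjusted p = 0.0186), limma voom (1.07e-05), with no filter on low counts (2.61e-04) and with only the libraries compared (1.15e-06). Itga2 had at most 1.25 CPM in any library, and its groups overlapped in both comparisons with 3D induced spheroids. It was called in 1 fit, for 3D against 2D induced without 3D induced replicate 2 (2.09, adjusted p = 0.0485).

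Itga5 and Itga10 were higher and Itga11 and Cdh26 lower in spheroids in both induction states, and the bases before their start sites are shown to place these genes side by side. They are from RefSeq (GRCm38.p6), each 250 bases except for Itga11, which has 221 because the annotated transcript begins earlier. Capitals mark matches, on either strand, to the AP-1 motif TGANTCA, the TEAD motif GGAATG and the GC box GGGCGG, none of which overlap here. Of 32851 RefSeq promoter windows of 250 bases, 6.75% hold the AP-1 motif, 12.6% the TEAD motif and 32.7% the GC box.
Itga5, chr15:103366792-103367041, minus strand: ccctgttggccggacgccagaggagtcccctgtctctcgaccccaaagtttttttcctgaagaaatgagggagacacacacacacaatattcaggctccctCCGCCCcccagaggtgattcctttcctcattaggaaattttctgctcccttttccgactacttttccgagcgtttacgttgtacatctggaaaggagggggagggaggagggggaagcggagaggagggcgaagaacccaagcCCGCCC
Itga10, chr3:96645334-96645583, plus strand: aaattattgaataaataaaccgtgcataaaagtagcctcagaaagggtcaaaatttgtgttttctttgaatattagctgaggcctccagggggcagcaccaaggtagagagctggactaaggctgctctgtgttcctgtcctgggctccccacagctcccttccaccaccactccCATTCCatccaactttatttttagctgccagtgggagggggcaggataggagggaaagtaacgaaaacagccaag
Itga11, chr9:62677605-62677825, plus strand: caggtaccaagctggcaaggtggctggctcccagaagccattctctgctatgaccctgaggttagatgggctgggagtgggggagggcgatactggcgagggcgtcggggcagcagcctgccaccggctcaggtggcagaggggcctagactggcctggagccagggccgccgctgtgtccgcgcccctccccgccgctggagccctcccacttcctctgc
Cdh26, chr2:178430265-178430514, plus strand: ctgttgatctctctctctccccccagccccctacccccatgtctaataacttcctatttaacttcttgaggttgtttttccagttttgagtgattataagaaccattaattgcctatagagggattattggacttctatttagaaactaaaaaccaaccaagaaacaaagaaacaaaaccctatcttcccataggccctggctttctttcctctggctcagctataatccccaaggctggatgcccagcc
The Itga5 window holds 2 GC box matches and the Itga10 window 1 TEAD match. No match says only that these letters are not in the window. The share of G and C was 55.6% before Itga5, 48.0% before Itga10, 69.2% before Itga11 and 42.8% before Cdh26. RefSeq promoters were at hand for 31 of the 49 genes.

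With induction in flat culture, a pair of laminin receptor subunits rose. Itga6, the alpha subunit of the receptors for laminin with Itgb1 and Itgb4 (chromosome 2, 71745616 to 71858416), had a CPM of 14.0 and 14.5 in 2D uninduced and 73.0 and 76.2 in 2D induced libraries. In spheroids its CPM was 48.2 and 28.0 without and 41.3 and 24.1 with induction. Flat cultures held both the lowest and the highest levels, and the uninduced and induced spheroids overlapped. Induction in 2D raised Itga6 by 2.39 ± 0.31 (edgeR adjusted p = 0.00397), a call lost without 2D uninduced replicate 1 (0.0686) or 2 (0.0620). Induction in 3D gave -0.22 (adjusted p = 0.852), and leaving out single libraries moved this value between -0.65 and 0.22.

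Between formats the sign of Itga6 differed with induction. It was 1.42 ± 0.31 higher in 3D than in 2D uninduced cultures (edgeR adjusted p = 0.0173) and -1.19 ± 0.30 in 3D against 2D induced cultures (adjusted p = 0.0225). The first call was lost without either 2D uninduced library (0.126 and 0.110), and without 3D uninduced replicate 1 the difference was 0.97 (0.119). The second was lost without either 2D induced library (0.0967 and 0.112) or with only the libraries compared (0.0652), and without 3D induced replicate 2 the difference was -0.85 (0.0755). The interaction, which is the test of the difference between the inductions, was -2.61 ± 0.43 with an adjusted p of 0.0686, so it was not called. It was called with DESeq2 (adjusted p = 1.39e-06), with limma voom (0.0217), with no filter on low counts (1.06e-04), and without 3D induced replicate 1 (0.0126) or 2 (0.0246). It was negative, between -2.16 and -3.04, in each of the 8 fits that left out 1 library.

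Itga7, a laminin receptor best known from muscle (chromosome 10, 128933818 to 128958282), also rose with induction in 2D. The CPM of Itga7 was 2.94 and 1.96 in uninduced and 14.5 and 14.2 in induced flat cultures, and 4.13 and 2.47 in uninduced and 2.57 and 10.5 in induced spheroids. The 2D induced libraries were highest, and the pair of 3D induced libraries lay far apart. The difference was 2.53 ± 0.59 in 2D (edgeR adjusted p = 0.0399) and 0.99 in 3D (adjusted p = 0.571). The 2D call was lost with the replicate block (0.0568), with no filter on low counts (0.0830), and without any 1 of the 6 libraries other than the 3D induced ones (0.0822 to 0.286). The 3D value was 1.67 without 3D induced replicate 1 (adjusted p = 3.26e-04, called) and -0.36 without replicate 2 (0.583). The interaction was -1.53 (adjusted p = 0.744), and without 3D induced replicate 2 it was -2.86 (4.05e-04). Of the skeletal muscle markers, Myod1 and Myog had 0 counts in all libraries, and the summed CPM of all 6 was 2.40 to 7.35. Itga7 shares 9 exon bases with Mettl7b on the opposite strand, which had 33 counts.

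Itga3, the other laminin alpha subunit with Itgb1, was not called by edgeR on all 8 libraries. The CPM of Itga3 was 11.95 and 13.2 in uninduced and 6.08 and 4.76 in induced flat cultures, and 21.8 and 15.3 in uninduced and 17.2 and 5.85 in induced spheroids. It was lowest in 2D induced libraries, and the 3D induced libraries again lay apart. The difference was -1.22 for induction in 2D (edgeR adjusted p = 0.163) and 1.09 for 3D against 2D induced (adjusted p = 0.116). Without 3D induced replicate 1 or 2 the first was called (2.95e-04 and 2.99e-04), as it was by limma voom (2.19e-04) and with only the libraries compared (2.32e-06). The second was 1.68 without replicate 2 (3.88e-05) and 0.13 without replicate 1 (0.713). Itgb4, the partner of Itga6 in hemidesmosomes, had 0.280 to 2.58 CPM and was called in no comparison.

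Induction called 3 of the 27 genes in 2D (11.1%), where 4.52% of all tested genes were called: Itga6 and Itga7 were higher (3.17% of all genes) and Cdh26 was lower (1.34%). With no limit on fold 6 passed, where 8.88% of all genes did, and Itgb2, Itgb5 and Cdh2 also fell. The count of 3 fell without any 1 library outside the 3D induced group and rose without either 3D induced library. The share of all genes called fell and rose in the same fits. In the fits without a 3D induced library, Itga1, Itga3, Itga8 and Itga11 were called lower in addition. The median difference was -0.49 for the 27 genes and 0 for all tested genes.

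Induction in 3D called 0 of the 27 with edgeR, where 0.911% of all tested genes were called. Of the 27, 9 had an unadjusted p under 0.05, 8 of them lower. The share of all genes under that limit was not counted, so counts at an unadjusted p, here and below, show no excess. DESeq2 called 2 (Itga11 and Itgb5), where 1.59% of all genes were called. Limma voom with group weights called 1 (Itgb5), where 0.577% were. Without 3D induced replicate 1 edgeR called 10, where 7.73% of all genes were called, and without replicate 2 it called 2 (Itgad and Itgb7), where 3.11% were. Itgad and Itgb7, and Cdh18 among the 10, needed 1 group to be tested, here the high one, so their calls are only a description. The median difference was -0.39 for the 27 genes and 0.04 for all tested genes. The interaction called 0 of the 27 with edgeR, against 0.380% of all genes, with 3 at an unadjusted p under 0.05 (Itga6, Cdh23 and Cdh26). DESeq2 and limma voom each called 1 (Itga6), and leaving out 3D induced replicate 1 or 2 gave 1 and 4, where 3.70% and 4.35% of all genes were called.

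Itga5 was the only subunit of the RGD receptors that edgeR called on all 8 libraries. Itgav pairs with Itgb1, Itgb3, Itgb5, Itgb6 and Itgb8 to bind vitronectin, fibronectin and latent TGF-beta. Its CPM was 256 and 245 in uninduced and 173 and 179 in induced flat cultures, and 311 and 263 in uninduced and 248 and 190.0 in induced spheroids. Induced libraries lay below uninduced ones in each format, with differences of -0.51 in 2D (edgeR adjusted p = 0.0784) and -0.39 in 3D (adjusted p = 0.325). DESeq2 (0.0304) and limma voom (1.63e-05) passed the first, under 2-fold. Itgb3, its partner in the classical vitronectin receptor, had 52.8 to 95.1 CPM over the 8 libraries, and its groups overlapped in all 4 comparisons.

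Itgb5, another partner of Itgav, was lower after induction in both formats. The CPM of Itgb5 was 250.3 and 262 in uninduced and 164 and 162 in induced flat cultures, and 226 and 227 in uninduced and 130.1 and 97.1 in induced spheroids. No induced library reached the level of an uninduced one. It fell by 0.65 in 2D (SE 0.14, edgeR adjusted p = 0.0304) and by 1.00 in 3D (SE 0.14, adjusted p = 0.0212), where the fold of 1.99 lay just short of the limit for a call. DESeq2 gave -1.02 in 3D (adjusted p = 1.14e-06) and called it, as did 5 other settings. With only the libraries compared it was not called, and 0 of all 14708 genes tested there were. The difference in 3D was -1.22 without 3D induced replicate 1 and -0.80, under 2-fold, without replicate 2. Itgb5 was also -0.52 in 3D against 2D induced cultures (adjusted p = 0.0297). Itga8, the nephronectin receptor subunit, had 0.410 to 6.42 CPM and was highest in 2D uninduced libraries. Its difference was -1.66 for 3D against 2D uninduced (edgeR adjusted p = 0.0749) and -1.16 for induction in 2D (adjusted p = 0.258), and both were called without 3D induced replicate 1 (5.79e-04 and 0.00903) or 2 (5.51e-04 and 0.00849). Limma voom (0.00289 and 0.00208) also called both, as did the fits with no filter on low counts and with only the libraries compared, and DESeq2 called the first (0.0465).

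Among subunits best known from blood cells, Itgb2 and Itga2b had a mean of 4.03 and 3.83 FPKM over the 8 libraries, and Itgad 0.0760. Itgb2, the shared beta subunit of leukocyte integrins, had a CPM of 13.7 and 15.1 in uninduced and 8.58 and 8.12 in induced flat cultures, and 13.1 and 16.6 in uninduced and 11.2 and 12.1 in induced spheroids. It was lowest in 2D induced libraries, -0.78 ± 0.18 against 2D uninduced (edgeR adjusted p = 0.0373), under 2-fold. Itga2b, the platelet subunit, had 17.8 to 26.8 CPM and was called in no comparison. Itgad, a leukocyte alpha subunit (chromosome 7, 128154376 to 128223816), had 24 and 14 counts in the 3D induced libraries and 4 counts in all other libraries together, with 0 in both 3D uninduced ones.

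Itgad passed the filter on low counts only through the 3D induced libraries, so its call between 3D and 2D induced cultures (3.26 ± 0.86, edgeR adjusted p = 0.0320) is no support for a difference. The counts were 38 in 3D and 3 in 2D, a level 10.1 times higher in 3D (95% interval 3.21 to 51.2, counting error only). The call was lost with DESeq2 (0.101), with only the libraries compared (0.0656), and without any 1 library except 3D induced replicate 2 (0.0504 to 0.205). Against the 0 counts of 3D uninduced cultures, taken at the limit of 3 over the group, the level was at least 10.9-fold higher and was not called (adjusted p = 0.0675). Itgad shares exon bases with 4 genes, among them 388 bases with 4931431B13Rik on the opposite strand (19 counts). Itgax had 3 and 5 counts in the 3D induced libraries and 0 in the other 6. The 9 leukocyte markers summed to 14.2 and 25.2 CPM in 3D induced and to 11.9 to 22.3 in the other libraries, with Ptprc at 0.

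**Figure D4:**
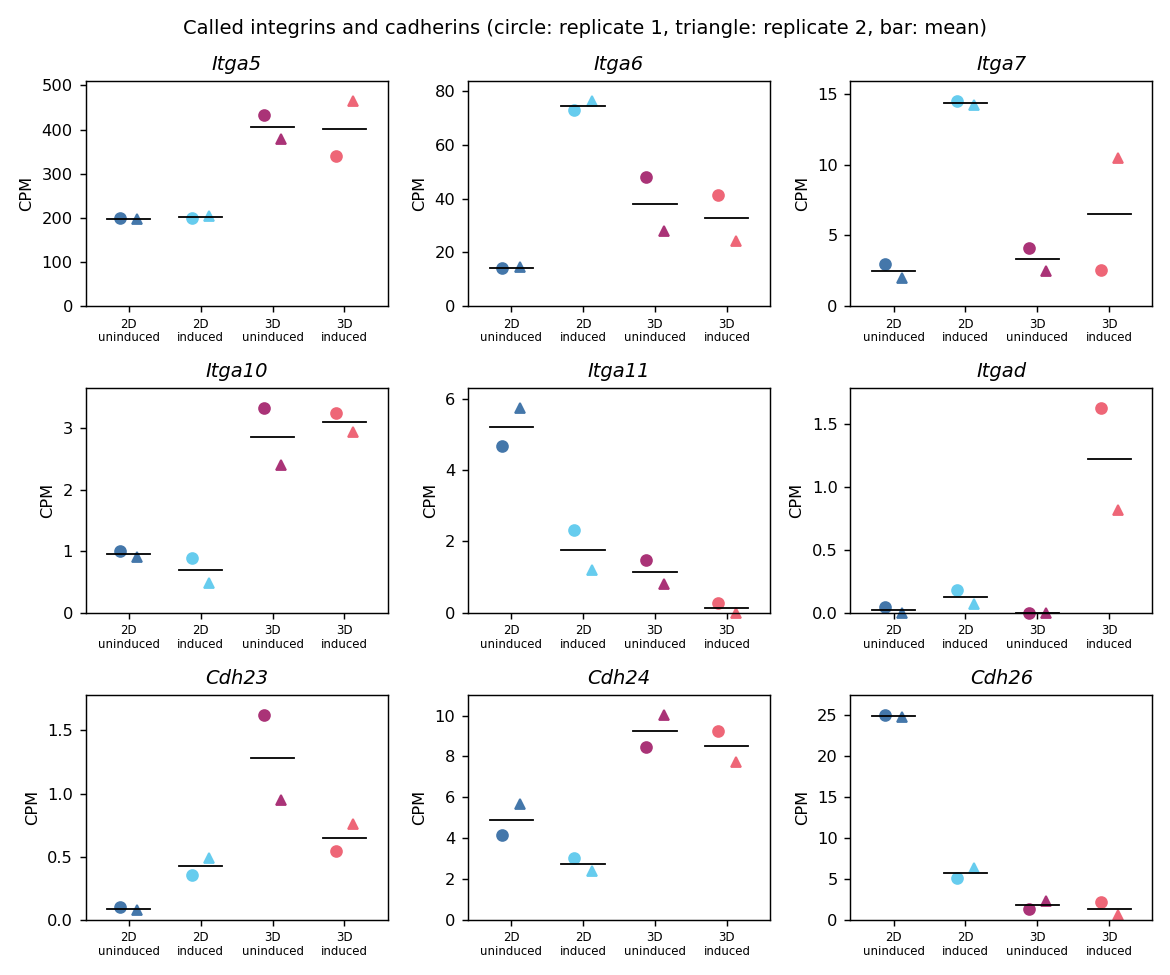
CPM (y axis, from 0) of the 9 integrins and cadherins called in at least 1 comparison, by group (x axis), with a circle for replicate 1, a triangle for replicate 2 and a bar for the mean. Itga6 and Itga7 peak in 2D induced libraries, Itga5 and Itga10 are higher in all spheroid libraries, and Itga11 and Cdh26 are highest in 2D uninduced libraries (4.68 and 5.73 CPM and 25.04 and 24.8 CPM).

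Cdh26, a cadherin known mainly from epithelia (chromosome 2, 178430531 to 178487366), was called in 3 comparisons. Its CPM was 25.04 and 24.8 in uninduced and 5.09 and 6.30 in induced flat cultures, and 1.33 and 2.25 in uninduced and 2.17 and 0.527 in induced spheroids. The flat uninduced libraries stood above all others, and every spheroid library was below every flat one. Cdh26 was -3.79 ± 0.49 in 3D against 2D uninduced cultures (edgeR adjusted p = 0.00273), and this was the only 1 of the 15 calls over the 9 called genes that was kept in all 8 fits without 1 library (adjusted p at most 0.0407). It was -2.12 ± 0.44 with induction in 2D (adjusted p = 0.0257) and -2.11 ± 0.51 in 3D against 2D induced cultures (adjusted p = 0.0200). The call for induction was lost without any 1 of the 6 libraries other than the 3D induced ones (0.0563 to 0.219). The other was lost without 2D induced replicate 1 (0.0733) or 2 (0.113), with limma voom (0.0844) and with only the libraries compared (0.111), and single 3D induced libraries moved its size, to -3.42 with replicate 1 left out and to -1.40 with replicate 2 left out. The interaction of Cdh26 was 1.68 with all 8 libraries (adjusted p = 0.631), 0.38 without 3D induced replicate 1 (0.751) and 2.39 without replicate 2 (0.00104). The 8 epithelial markers summed to 3.34 and 4.07 CPM in 2D uninduced and to 0.350 to 0.727 in the other libraries. Most of the 2D uninduced sums was 1 gene, Krt8, with 3.235 and 3.542 CPM. Epcam had 1 count in all libraries together, and Krt14 had 0 and 0.0754 CPM in 2D uninduced and 0.295 and 0.436 in 3D uninduced libraries. The part of these markers in the result was not tested.

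Cdh24 was higher in spheroids, and Cdh23 was called higher in uninduced ones. Cdh24, a type II cadherin (chromosome 14, 54631231 to 54641364), had a CPM of 4.13 and 5.65 in uninduced and 3.04 and 2.38 in induced flat cultures, and 8.48 and 10.0 in uninduced and 9.27 and 7.72 in induced spheroids. All spheroid libraries lay above all flat ones. It was 1.65 ± 0.26 higher in 3D induced (edgeR adjusted p = 0.00414), lost without 2D induced replicate 2 (0.0515), and 0.93 ± 0.25 higher in 3D uninduced cultures (adjusted p = 0.0343), under 2-fold. Cdh23, a long cadherin of the hair cell tip link (chromosome 10, 60302748 to 60696490), had 22 and 13 counts in 3D uninduced and 2 and 1 in 2D uninduced libraries. The level was 14.2 times higher in 3D (95% interval 4.49 to 72.3, counting error only), and the fitted difference was 3.72 ± 0.66 (edgeR adjusted p = 0.00845). Cdh23 passed the filter only with the 3D uninduced libraries, so this call is no support for a difference. It was lost without either 2D uninduced library (0.0947 and 0.0854) or 3D uninduced replicate 1 (0.0759). In induced cultures Cdh23 had 8 and 13 counts in 3D and 4 and 7 in 2D, a difference of 0.60 (adjusted p = 0.462). Cdh18, a type II cadherin of the brain, had 13 and 33 counts in 3D uninduced and 1 to 9 in the other libraries, and passed the filter only through the 3D uninduced ones.

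Cdh11 and Cdh2, the most abundant cadherins by mean FPKM, were highest in 2D uninduced cultures, and Cdh13, the next, was not. Cdh11 (chromosome 8, 102632095 to 102785642) had a CPM of 773 and 753 in uninduced and 446 and 445 in induced flat cultures, and 434 and 399 in uninduced and 345 and 160.3 in induced spheroids. All other libraries lay below the 2D uninduced ones, but no difference passed the edgeR test on all 8 libraries. The differences were -0.78 for induction in 2D (edgeR adjusted p = 0.163), -0.72 for induction in 3D (0.374), -0.87 for 3D against 2D uninduced (0.0740) and -0.82 for 3D against 2D induced (0.0745). Cdh11 was called without 3D induced replicate 1 for induction in 3D (-1.37, adjusted p = 4.44e-08) and for 3D against 2D induced (-1.47, adjusted p = 5.76e-09). Without replicate 2 these were -0.27 (0.0444) and -0.37 (0.00234), under 2-fold. DESeq2 passed Cdh11, under 2-fold, for induction in 2D (0.0478), 3D against 2D uninduced (0.0127) and 3D against 2D induced (0.0172), as did limma voom (2.76e-06, 1.09e-05 and 0.00923).

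Cdh2, the N-cadherin of fibroblasts, nerve and muscle, was lower by a smaller fold. Its CPM was 89.0 and 81.1 in uninduced and 60.4 and 64.1 in induced flat cultures, and 65.1 and 63.9 in uninduced and 48.1 and 48.5 in induced spheroids. The 2D uninduced libraries were highest and the 3D induced ones lowest. Cdh2 fell by 0.45 with induction in 2D (SE 0.10, edgeR adjusted p = 0.0375), was -0.40 in 3D against 2D uninduced (adjusted p = 0.0321) and -0.37 in 3D against 2D induced cultures (adjusted p = 0.0350), all under 2-fold. With the replicate block none of these passed (edgeR adjusted p = 0.0615, 0.0507 and 0.0538). The last also failed with limma voom (0.228) and with only the libraries compared (0.170). With 1 library left out the sizes were -0.42 to -0.55, -0.35 to -0.48 and -0.32 to -0.41 in the same order. With induction in 3D Cdh2 was -0.42 (edgeR adjusted p = 0.119). Cdh13, or T-cadherin, which is held in the membrane by a lipid anchor and binds adiponectin, had 71.5 and 79.7 CPM in uninduced and 90.1 and 95.4 in induced flat cultures, and 65.2 and 58.1 in uninduced and 97.7 and 38.3 in induced spheroids. Cdh13 was not called by edgeR on all 8 libraries, and the 3D induced libraries held both its highest and its lowest value. Without 3D induced replicate 1 it was called for 3D against 2D induced (-1.27, adjusted p = 3.07e-07), and induction in 3D was -0.68 without replicate 1 and 0.66 without replicate 2.

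Genes around the receptors were taken from 3 lists. Their counts stand beside the shares of all tested genes that were called: 4.52% for induction in 2D (3.17% higher, 1.34% lower), 0.911% for induction in 3D, 9.44% between formats without induction (5.42% higher, 4.02% lower) and 12.4% with it (6.94% higher, 5.46% lower). On lists this short, a count of 0 to 2 says little against these shares. Of 30 tested of 33 adaptors and kinases at the cytoplasmic side of integrins, 1 rose with induction in 2D and in 3D: Ptk2b, a kinase related to FAK, by 1.48 ± 0.21 (edgeR adjusted p = 0.00566) and 1.31 ± 0.21 (adjusted p = 0.0324). Its CPM was 28.9 and 31.9 in uninduced and 84.7 and 84.8 in induced flat cultures, and 19.2 and 27.7 in uninduced and 67.5 and 48.6 in induced spheroids. In spheroids against flat cultures, 1 of the 30 was lower without induction (Kank1, a talin-binding protein, -1.16 ± 0.22, adjusted p = 0.0101). With induction 2 were higher, Actn1 (an actinin, 1.12 ± 0.10, adjusted p = 5.94e-04) and Fermt3 (the kindlin of blood cells, 2.16 ± 0.53, adjusted p = 0.0207), and Kank1 was lower (-2.29 ± 0.22, adjusted p = 8.13e-04). The median difference of the adaptors lay between -0.15 and 0.04 in these 4 comparisons. The calls of Ptk2b were lost without any 1 of the 2D libraries, and that in 3D also without either 3D uninduced library (adjusted p up to 0.0907 and 0.243). The uninduced call of Kank1 was lost without any 1 uninduced library (up to 0.0887), and that of Fermt3 without either 2D induced library (up to 0.138).

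Of 15 tested of 20 catenins and other cadherin partners, 0 were called by edgeR for either induction or for 3D against 2D uninduced cultures, with 5, 4 and 5 at an unadjusted p under 0.05. DESeq2 and limma voom also called 0 of them in these comparisons. In induced cultures Jup, the catenin plakoglobin, was higher in spheroids (1.06 ± 0.12, edgeR adjusted p = 0.00135) and Nectin2, a nectin, was lower (-1.23 ± 0.12, adjusted p = 9.40e-04). The call of Jup was lost, by falling under 2-fold, without 2D induced replicate 2 or 3D induced replicate 2.

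Of 29 tested of 39 integrin ligands, 1 rose and 4 fell with induction in 2D (3 called by DESeq2 and 7 by limma voom), and the ligands that fell were Thbs1, Lama5, Tnc and Ccn2. Thbs1, or thrombospondin, fell by 1.77 (SE 0.19, edgeR adjusted p = 0.00172), with 682 and 708 CPM before and 210.1 and 197 after induction, and kept its call without any 1 library. The other 4 calls, that of Lamb3 (higher, 2.15 ± 0.50) included, were lost without any 1 of the 6 libraries other than the 3D induced ones (adjusted p up to 0.228 to 0.267). Induction in 3D called 0 ligands with edgeR, with 7 at an unadjusted p under 0.05, while DESeq2 called 1 and limma voom 0. Between 3D and 2D uninduced cultures 6 were higher and 2 lower (13 called in all by limma voom). Spp1, or osteopontin, a ligand of Itgav, was higher by 1.97 ± 0.26 (adjusted p = 0.00277), with 418 and 357 CPM in 2D and 1899 and 1135 in 3D. Tgfb1 was higher by 1.17 ± 0.12 (adjusted p = 0.00123), and the matricellular ligands Ccn2 and Ccn1 by 2.86 ± 0.38 (0.00277) and 1.90 ± 0.31 (0.00593). Postn, or periostin, was lower by 2.24 on the log2 scale, with 3339 and 3636 CPM in 2D and 572 and 903 in 3D. With induction 5 ligands were higher in spheroids, among them Ccn2 (3.59 ± 0.51, adjusted p = 0.00277), Ccn1 (2.14 ± 0.31), Tnc (3.71 ± 0.81) and Spp1 (1.11 ± 0.25), and Postn was again lower (-2.36 ± 0.36, adjusted p = 0.00358). The uninduced calls of Ccn1, without either 2D uninduced library (adjusted p up to 0.0646), and of Postn, without 3D uninduced replicate 1 (0.0614), were lost. The induced call of Tnc was lost without either 2D induced library or 3D induced replicate 1 (up to 0.103), and that of Spp1 without any 1 of the 4 induced libraries (up to 0.127). Of all 27 calls on the 3 lists, 10 were kept without any 1 library.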

How the data were processed

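RNA of 8 samples in 4 groups of 2 was sequenced from libraries made with a directional kit, per the labels. The authors deposited raw read counts per Ensembl gene, whole numbers with no normalization. The submitters' processing notes name build mm10 and list HISAT2 (2.1.0) and featureCounts (1.6.3) beside Trimmomatic (0.38) and FastQC (0.11.7). Their options, the gene annotation and whether counting used strand are not given here, so reads of overlapping genes may be mixed. Columns were joined to samples by the descriptions, and the title's replicate numbers are used.

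Symbols (49326 of 49585 genes), positions and exon lengths came from GENCODE vM21 (GRCm38). With R 4.3.3 and edgeR 4.0.16, genes were kept by filterByExpr (minimum count 10), scaled by TMM and fitted with the robust quasi-likelihood model (1 mean per group, 4 residual degrees of freedom). Each standard error is |log2 fold change| over √F. Tests are two-sided, and low-count intervals are exact binomial. One CPM stands for 11.8 to 21.2 counts. FPKM uses TMM-scaled sizes and the union of exons. The count tests were tested on simulated data. Alternatives were DESeq2 1.42.0, RLE size factors, no or a stricter filter (30), the replicate block, only the libraries compared, limma 3.58.1 voom with group weights, no fold limit, and leaving out each library. Genes named are all called members, a fixed set of integrins and cadherins, and up to 4 called genes per list and direction. Members without a role in these rules, such as Itgax, were named after their values were seen. The members, lists and alternatives were chosen with earlier results of these data known.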

Additional observations from a re-analysis of the deposited data

How the results depend on the processing

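The counts of called integrins and cadherins depended on the settings. For induction in 2D (3 in the fit reported) it was 5 with no filter on low counts, 7 with only the libraries compared, 8 with limma voom, 6 with no limit on fold, and 0 to 7 with 1 library left out. For induction in 3D (0) it was 2 with DESeq2, 1 each with RLE size factors, with the stricter filter, with limma voom, with the replicate block and with no limit on fold, 5 with no filter on low counts, and 0 to 10 with 1 library left out. For 3D against 2D uninduced (6) it was 1 to 9 with 1 library left out. For 3D against 2D induced (6) it was 2 with only the libraries compared and 1 to 11 with 1 library left out. For the interaction (0) it was 1 each with DESeq2, with no filter on low counts and with limma voom, and 0 to 4 with 1 library left out. The share of all tested genes called moved with the settings too. For induction in 2D it was 4.52% in the fit reported and 3.40% with no filter on low counts. It was 8.51% with only the libraries compared and 8.84% with limma voom. For induction in 3D it was 0.911%, 1.59% with DESeq2, 1.31% with no filter and 0.577% with limma voom. For 3D against 2D induced it was 12.4%, and 5.67% with only the libraries compared. For the interaction it was 0.380%, and 1.07% with DESeq2. The cause of these moves was not tested. Leaving out a library leaves its group with 1, which is then assumed to vary like the other groups.

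The log2 difference of Itga6 for induction in 3D changed sign (-0.65 to 0.22 with 1 library left out), as did that of Itga7 (-0.36 to 1.67). Of the 15 calls over 9 genes, 1 was kept with each library left out and 9 in every other setting run. Libraries with the same replicate number were not treated as paired in the fit reported. The correlation of their deviations from the group means was -0.00619 to 0.0265 in 5 pairs of groups and 0.206 between the 3D groups. It cannot show whether samples were prepared in pairs. The replicate numbers are those of the titles, which differ from the file's column numbers for 2D uninduced libraries. With the replicate block the counts were 2, 1, 6, 6 and 0, in the order above.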

Other observations

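The spread between the 2 libraries of a group was itself uneven over the integrins and cadherins. With 0.1 CPM added to each value, 11 of the 27 tested genes (40.7%) differed at least 2-fold between the 3D induced libraries, against 14.6% of all tested genes. In 2D uninduced cultures 1 did (3.70%, against 2.69% of all genes), in 2D induced 3 (11.1% against 3.96%) and in 3D uninduced 4 (14.8% against 3.91%). The members' share was the higher one in each group. Outside 3D induced, these were genes with few counts, at most 39 in either library of the group. Within 3D induced the same held for Itga2 (18 and 5 counts), Itga8 (27 and 7) and Itga11 (4 and 0). It also held there for Itgb7 (4 and 38), Itgb8 (9 and 3) and Cdh26 (32 and 9). Itga1, Itga3, Itga7, Cdh11 and Cdh13 had more. The 1 in 2D uninduced cultures was Cdh18, with 9 and 1 counts. The part of counting error in these shares was not tested. Replicate 2 of the 3D induced spheroids was lower for 9 of the 11: Itga1, Itga2, Itga3, Itga8, Itga11, Itgb8, Cdh11, Cdh13 and Cdh26. It was higher for Itga7 and Itgb7, the partner of Itgae and Itga4 on lymphocytes. Itgb7 had 0.271 and 2.22 CPM in these libraries and 2.88 and 1.24 in 3D uninduced ones. Itgb1, by contrast, had 649 and 645 CPM in the 3D induced libraries, and Cdh2 had 48.1 and 48.5.

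The summed FPKM of the cadherins in the 3D induced libraries, 57.0 and 30.03, followed Cdh11, which had 38.7 and 18.0 FPKM. The fibroblast and preadipocyte markers of that group ranged from 4436 to 14596 in summed CPM, and their part in these gaps was not tested.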
